A study of Mus musculus with 2 samples.

Results

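The nuclear genes of the mitochondrial respiratory chain were followed on Affymetrix arrays of cultured mouse embryonic endothelial cells, which form the inner lining of vessels. Members were selected by name from the platform's probe annotation: probe sets with a single gene symbol that starts with Nduf, Uqcr, Cox4 to Cox8 or Atp5, or that is Sdha, Sdhb, Sdhc, Sdhd or Cycs. This gave 183 of 45101 probe sets, for 91 of 18193 genes. The primary cells came from C57/BL6 embryos at E10.5 with a floxed Snail1 gene (Snail1 f/f), in which both groups shared the floxed allele, the medium with 20% serum and an endothelial growth factor cocktail. The WT group received an adenovirus carrying β-galactosidase and the Snail1 KO group an adenovirus carrying Cre, the recombinase that removes the floxed part, and both recovered for several days before total RNA was taken. Each group is 1 array, and how many embryos or cultures an array stands for is not stated in the labels. No array holds Cre-treated cells without the floxed allele, so in every value here the loss of Snail1, the virus given and the presence of Cre cannot be told apart.

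The respiratory chain passes electrons from NADH through complex I, or from succinate through complex II, to ubiquinone, then through complex III and cytochrome c to complex IV, which reduces oxygen. Complexes I, III and IV pump protons across the inner mitochondrial membrane, and complex V, the ATP synthase, lets them flow back to make ATP. Most subunits are encoded in the nucleus and imported, while a few core subunits come from mitochondrial DNA. Endothelial cells are known to draw much of their ATP from glycolysis and to use mitochondria for biosynthesis and signalling as well.

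With 1 array per group no difference was tested, and every statement gives sizes on these 2 arrays. Values are RMA log2 expression values, and a log2 difference is Snail1 KO minus WT. The probe set with the highest mean stands for its gene, which was analysed where that mean exceeded 3.97. This filter level is the 40th percentile over the probe sets that are not array controls. Of the 91 genes, 87 were analysed, and the remaining 4 are Cox7a1, Cox7b2, Cox8b and Ndufb4. Over all 12874 analysed genes the median difference was -0.01 and the robust SD 0.32. Snai1 measured 5.33 in WT and 3.59 in Snail1 KO, where it lay below the filter level, so the size of its difference is not exact. The endothelial cadherin gene Cdh5 was at 11.34 and 11.46, with all 10 endothelial markers above the filter level on both arrays. The differences of these 10 went both ways, from -0.40 for Emcn to 1.08 for Cldn5, with a median of 0.10. Tek, Kdr and Tie1 differed by 0.62, 0.49 and 0.40, and Esam and Erg by -0.33 and -0.25. Other cell types' markers moved as well: the summed linear signal of 8 smooth muscle and pericyte markers was 3431 in WT and 909.8 in Snail1 KO, and that of 5 neural markers 1468 and 570.2. Of these, Acta2, Tagln, Stmn2 and Nes were above the filter level on both arrays and differed by -1.85, -2.54, -1.64 and -0.73. Also above it on both were Cnn1 and Pdgfrb, at -0.81 and -0.40, and Tubb3, at -0.07. Des and Cspg4, above it as well, did not fall, with differences of 0.007 and 0.10. Heart and skeletal muscle markers summed to 264.4 and 168.1 over 10 genes, 6 leukocyte markers to 664.9 and 613.6, and 6 fibroblast markers to 3652 and 3543. Single markers differed more than these sums, which the brightest genes dominate: the leukocyte marker Coro1a was at 6.80 and 4.84 and the fibroblast marker Col3a1 at 7.33 and 6.33. Their part in the results below was not tested. Above the filter level in WT were 7 of the 8 smooth muscle and pericyte markers, 3 of the 5 neural, 4 of the 10 muscle, 4 of the 6 leukocyte and 4 of the 6 fibroblast markers. Some defining markers were below it on both arrays, among them Myh6, a heart myosin, Rgs5, of pericytes, and Sox2, of neural progenitors.

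Nearly all respiratory chain genes had a negative difference, which was mostly small but varied in size from gene to gene. Apart from assembly factors and tissue-restricted isoforms, 73 analysed genes encode subunits or cytochrome c. Of these, 68 were lower and 5 higher, against 50.9% lower and 48.9% higher among all analysed genes. Their median difference was -0.22, with quartiles of -0.36 and -0.11. Few differences were large: 3 of the 73 (4.11%) were at least 1.5-fold lower, against 6.08% of all analysed genes, and 1 was at least 1.5-fold higher, against 5.06%. None was 2-fold lower or higher, where the shares over all analysed genes were 1.84% and 0.971%. At a size of 0.32 log2 units or more, 22 of the 73 (30.1%) were lower, against 17.4% of all analysed genes, and 1 was higher, against 15.6%. The share past 1.5-fold was thus not above the background, while the share with a negative sign was. In bulk RNA, less RNA per cell cannot be told apart from a change in the mix of cells.

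**Figure D1:**
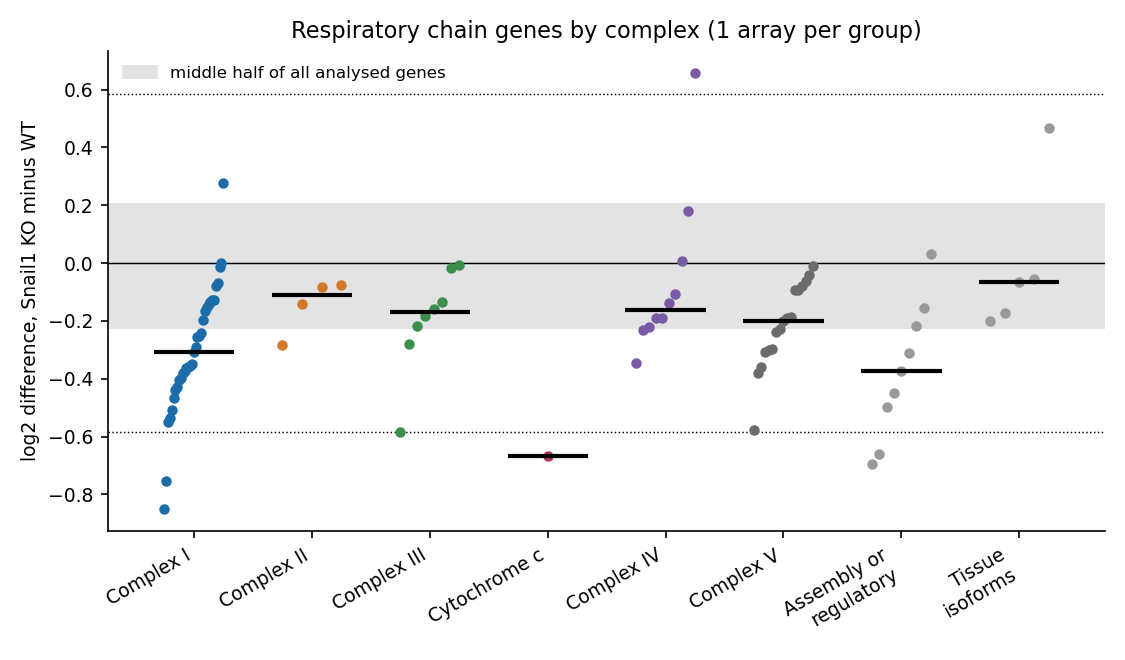
Each point is 1 analysed gene, with its log2 difference (Snail1 KO minus WT) on the vertical axis, and black bars are class medians. The grey band is the interquartile range of all 12874 analysed genes and the dotted lines mark 1.5-fold. Nearly all points of complexes I, II, III and V lie below 0, and Cycs lies at -0.67.

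Complex I, the NADH dehydrogenase, had the largest set and the lowest median of the 5 complexes, at -0.31 over 33 genes. Of these, 31 were lower and 2 higher. The gene furthest from 0 was Ndufa5, an accessory subunit, at 10.54 on the WT array and 9.69 on the Snail1 KO array, or 1.80-fold lower. Its other probe set gave -0.79, so both probe sets were lower by a like amount. Ndufb1, a small accessory subunit of the membrane arm, was at 7.13 and 6.38, or 1.68-fold lower, from its single probe set. These are the only complex I genes past 1.5-fold.

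Further accessory subunits followed below that size. Ndufa2 measured 11.11 in WT and 10.56 in Snail1 KO. Ndufa12 was at 11.69 and 11.16, with its 4 probe sets between -0.59 and -0.22. Ndufs5 was at 10.30 and 9.79. These 3 genes differed by -0.55 to -0.51. Ndufab1, the mitochondrial acyl carrier protein that is built into complex I as well, was at 11.81 and 11.34, although its dimmest probe sets differed by up to 0.17 the other way. Ndufa3 was at 12.60 and 12.16, with -0.57 in a dim probe set. The remaining lower accessory genes of the Ndufa, Ndufb, Ndufc, Ndufs and Ndufv families ranged from -0.41 for Ndufb2 to -0.01 for Ndufb5. All 10 analysed Ndufb genes and both Ndufc genes were lower, with medians of -0.35 and -0.32.

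The core subunits of complex I carry the flavin and the iron-sulphur clusters and do the electron transfer. Of the 6 with a value, 5 were lower, with a median of -0.27, beside -0.35 for 27 accessory genes. Ndufs7, near the ubiquinone site, was at 10.67 and 10.24, and Ndufs3 at 10.94 and 10.58. Ndufs8 was at 11.44 and 11.15, with 5 of its 6 probe sets lower. Ndufv2, a partner of the flavin subunit, was at 11.17 and 10.92 in its brightest probe set, and its other probe sets gave -0.68 and -0.70. Ndufs1, which holds several iron-sulphur clusters, was at 10.11 and 10.04, so the arrays hardly differed there. The exception was Ndufv1, the flavin subunit that accepts electrons from NADH, at 9.76 on the WT array and 10.03 on that of Snail1 KO. Its 3 probe sets were all higher, by 0.01 to 0.28. Ndufa7 was at 11.02 on both arrays, and its other 4 probe sets gave -0.14 to -0.03.

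**Figure D2:**
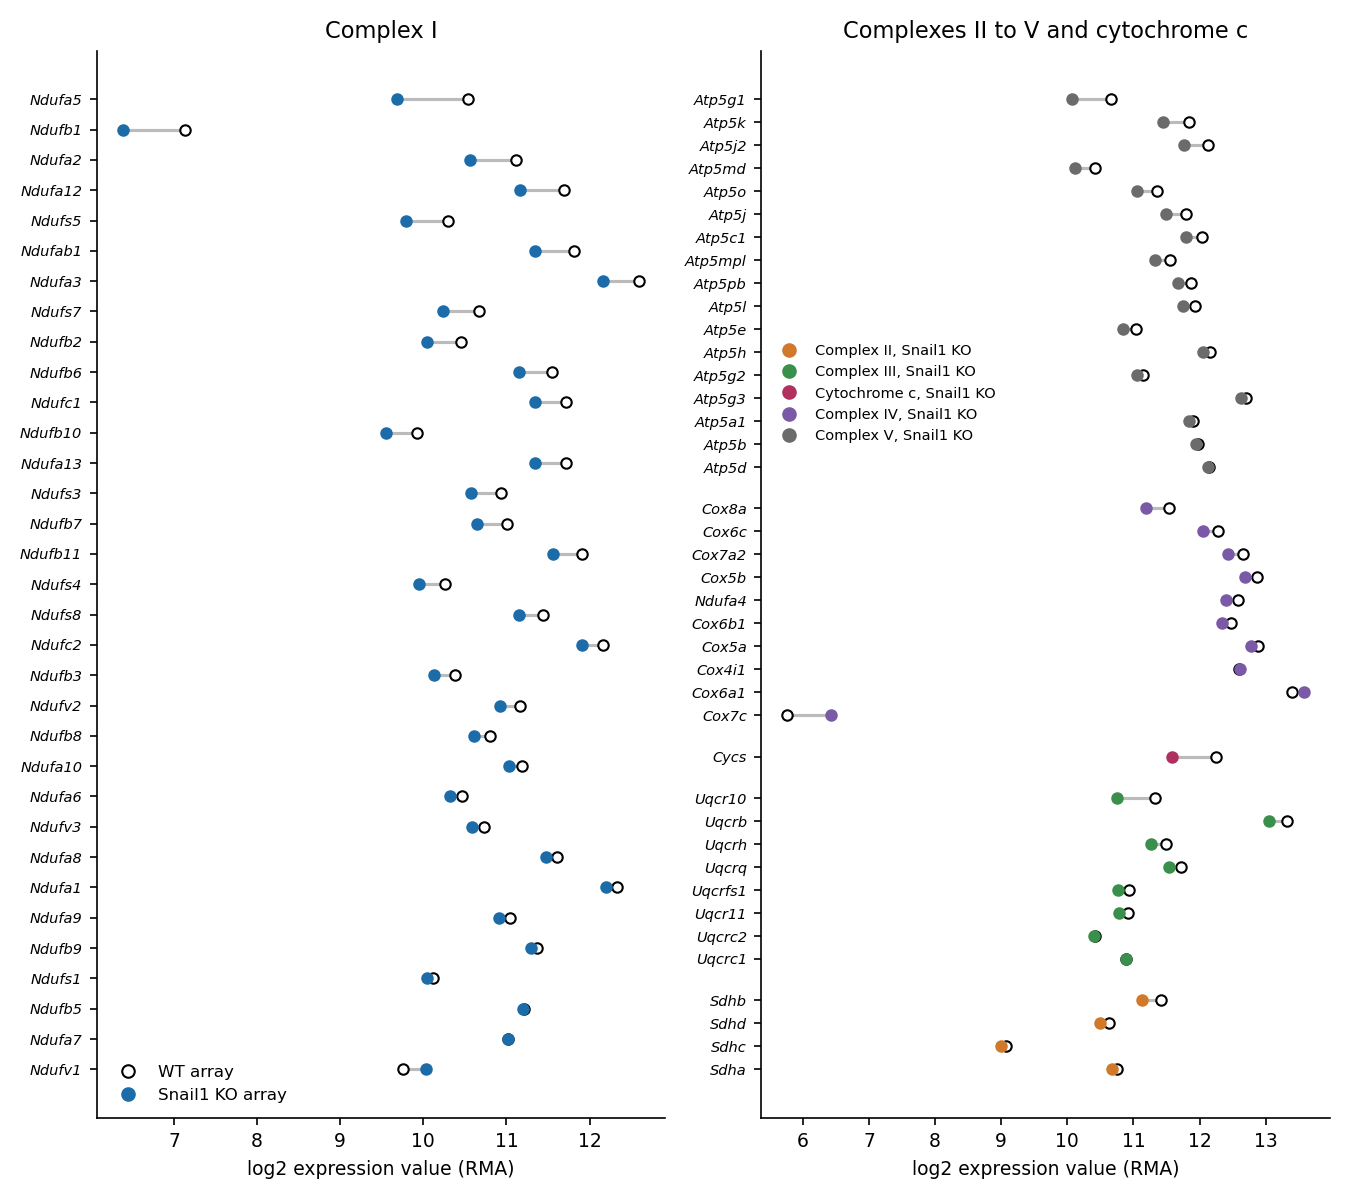
Open circles are log2 values on the WT array and filled circles those on the Snail1 KO array, 1 gene per line, for 33 complex I genes (left) and 40 genes of the other complexes with cytochrome c (right). Filled circles lie left of open ones except for Ndufv1, Ndufa7, Cox4i1, Cox6a1 and Cox7c. Levels of different genes come from different probes and are not comparable.

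Complex II, which oxidises succinate and belongs to the citric acid cycle too, had a median of -0.11 over 4 genes, or -0.19 when the probe sets of each gene were averaged. Sdhb, the iron-sulphur subunit, measured 11.42 in WT and 11.13 in Snail1 KO. Sdha, the flavin subunit, was at 10.75 and 10.67 in its brightest probe set, while another of like signal gave 0.16, so its sign depends on the probe set. The membrane anchors Sdhc and Sdhd differed by -0.08 and -0.14, with -0.68 in a dimmer Sdhd probe set.

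All 8 genes of complex III, the cytochrome bc1 complex, were lower, with a median of -0.17. Uqcr10, a small subunit, was furthest from 0, at 11.33 on the WT array and 10.74 on that of Snail1 KO, and its other probe sets gave -0.65 and -0.63. The mean of its probe sets, -0.62, was past 1.5-fold. Uqcrb, which lies at the ubiquinone site, was at 13.32 and 13.04, with -0.57 in its dimmer probe set. Uqcrfs1, the Rieske iron-sulphur protein, was at 10.93 and 10.77. The large core proteins Uqcrc1 and Uqcrc2 differed by -0.01 and -0.02, which is next to nothing, although a second Uqcrc2 probe set gave -0.52. Cyc1, the cytochrome c1 gene of the same complex, does not start with these letters and was not counted. It was at 10.76 and 10.61.

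Cycs encodes cytochrome c, the soluble carrier between complexes III and IV that also triggers apoptosis when released. It measured 12.25 in WT and 11.59 in Snail1 KO, or 1.59-fold lower. The next 2 probe sets gave 11.91 and 11.23, and 10.72 and 10.08, so 3 probe sets differed by -0.68 to -0.64. The fourth was dim, at 4.01 on both arrays, and with the mean of all 4 the difference was -0.50, which is below 1.5-fold. The difference thus does not rest on 1 probe set, although all of them read the same 2 RNA samples. Cycs has processed pseudogenes, and probe sets may bind their transcripts.

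Complex IV, cytochrome c oxidase, was the least uniform in sign, with 7 lower and 3 higher genes and a median of -0.16 over 10. Cox8a measured 11.53 in WT and 11.19 in Snail1 KO, the lowest difference of the complex. Cox6c was at 12.28 and 12.05, with -0.55 in its other probe set. Cox7a2, Cox5b, Ndufa4, Cox6b1 and Cox5a followed, from -0.22 to -0.11. Ndufa4 carries a complex I name but is a subunit of complex IV and was counted here. Cox5b, which binds zinc, had 6 probe sets, all lower, between -0.31 and -0.19. Cox4i1, a regulatory subunit that binds ATP, was at 12.60 and 12.61, and Cox6a1 at 13.40 and 13.58, with -0.09 in its other probe set. Cox4i1 thus hardly differed, while Cox6a1 was higher by 0.18 in its brighter probe set.

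Cox7c was the 1 subunit gene at least 1.5-fold higher, at 5.76 on the WT array and 6.42 on that of Snail1 KO. Its other probe set was dim, at 3.40 and 4.21. Which transcripts these probe sets detect was not tested. Without Cox7c the complex IV median was -0.19.

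All 17 genes of complex V were lower, with a median of -0.20. Parts of the enzyme are listed by role. In the brightest probe sets the catalytic F1 head and its stalk had the smallest median difference, -0.06 over 5 genes. This order of the parts depends on the choice of probe set. Atp5b, the catalytic beta subunit, was at 11.98 and 11.94, Atp5a1, the alpha subunit, at 11.90 and 11.84, and Atp5d at 12.14 and 12.13. Other probe sets gave -0.22 for Atp5d, and 0.02 and -0.29 for Atp5a1. Atp5c1, the gamma subunit that rotates in the head, was at 12.03 and 11.80, although a dim second probe set gave 0.35. The 4 genes of the peripheral stalk, which holds the head still, had a median of -0.25. Among them, Atp5o was at 11.35 and 11.05, with -0.93 in its other probe set and a mean of -0.61, past 1.5-fold. Atp5j was at 11.79 and 11.49.

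The c ring of ATP synthase is made of identical proteins encoded by several genes. Atp5g1 measured 10.65 in WT and 10.07 in Snail1 KO, just short of 1.5-fold lower. The other genes, Atp5g2 and Atp5g3, differed by -0.09 and -0.08. The small membrane subunits had a median of -0.31 over 5 genes, all lower, from -0.38 for Atp5k, the e subunit, to -0.19 for Atp5l, the g subunit. Atp5k was at 11.83 and 11.45, and its 3 probe sets gave -0.56 to -0.38.

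The factors that assemble complex I, named Ndufaf, do not stay in the finished enzyme. All 8 were lower, with a median of -0.41. Ndufaf4 measured 10.18 in WT and 9.49 in Snail1 KO, or 1.62-fold lower, but its dimmer probe set gave -0.07. Ndufaf2 was at 8.06 and 7.40, or 1.58-fold lower, from 1 probe set. Ndufaf5, which modifies Ndufs7, was at 7.51 and 7.01, and the others ranged from -0.45 to -0.15. Cox7a2l, known from work on supercomplexes of complexes III and IV, was at 11.37 and 11.40, with its other probe sets at 0.18 and 0.12. Whether it joins these complexes in the cells used here was not tested.

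Most isoforms restricted to other tissues lay near or below the filter level on both arrays. The heart and muscle forms Cox7a1, at 3.26 and 2.98, and Cox8b, at 3.74 and 3.66, were below the filter level, and Cox6a2 was at 5.14 and 4.96. The testis form Cox7b2 was also below it, at 2.61 and 2.48. Cox4i2, a form known from lung and hypoxia, was at 4.67 and 4.47, and Ndufa4l2, a hypoxia-inducible paralogue, at 5.40 and 5.33. Of the testis forms, Cox8c was at 6.82 and 6.77, and Cox6b2 at 8.32 on the WT array and 8.79 on that of Snail1 KO, the highest difference of this class, from 1 probe set. The number of these genes is too small for a statement on the class.

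Probe sets of the same gene mostly had the same sign. Of 45 subunit genes with several probe sets above the filter level, 31 were lower in all of them and 1 was higher in all, which is 68.9% lower in all. Over all genes with several such probe sets the share lower in all was 23.8%, and 28.1% where the brightest had a mean above 10. These shares also depend on how many genes were lower in their brightest probe set, so they are not separate evidence. Sign agreement in either direction held for 32 of the 45 subunit genes, against 56.0% of all genes with several such probe sets. Of 114 member probe sets with a mean above 10, 106 were lower. Of 58 between the filter level and 10, 39 were lower, with a median of -0.16 beside -0.23 above 10. Probe sets marked as able to bind several transcripts (identifiers ending in x, s or a) had a median of -0.23 over 87, and the other 85 a median of -0.18. A further 10 probe sets carry a respiratory chain symbol together with another and were left out by the selection. Of these, 9 were lower, among them both probe sets shared by Ndufb4 and its copies, at -0.21 and -0.34.

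**Figure D3:**
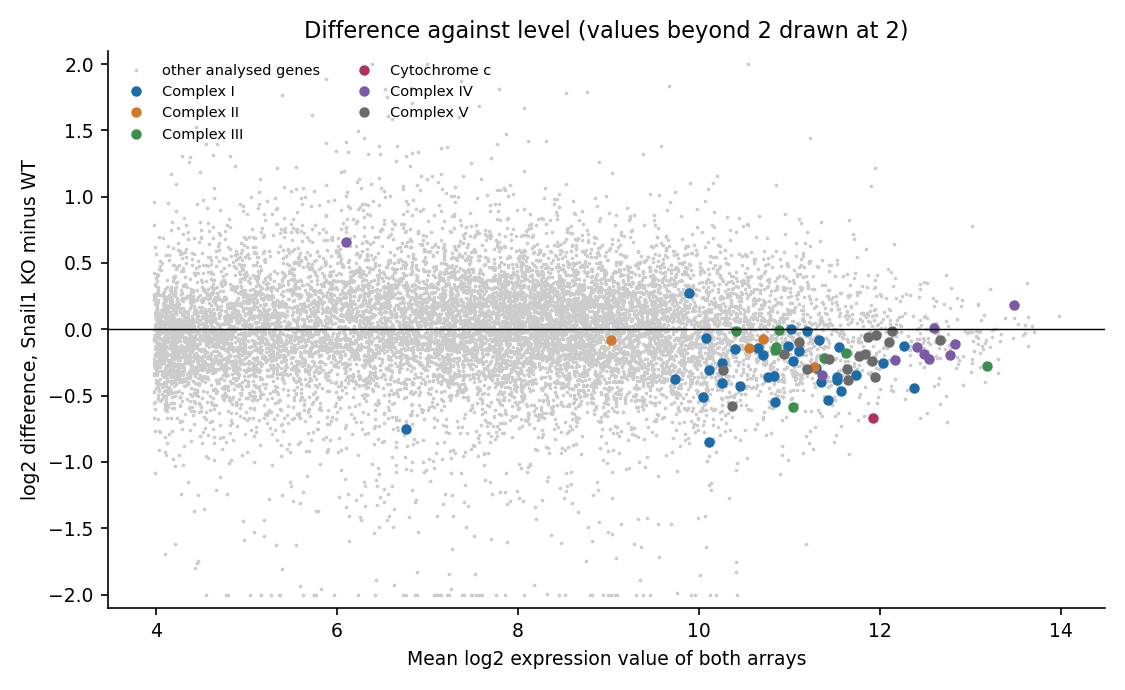
The horizontal axis is the mean log2 value of both arrays and the vertical axis the log2 difference (Snail1 KO minus WT). Grey points are other analysed genes, coloured points the 73 subunit genes. Of the subunit genes, 68 have a mean above 10, and 65 of those lie below 0.

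Most subunit genes are bright and short, so they are given beside genes of like level and size. Over all analysed genes, 56.3% were lower between the filter level and 6, 45.6% between 6 and 8, and 48.7% between 8 and 10. The share rose further with level, to 53.9% between 10 and 11, 58.2% between 11 and 12 and 63.8% above 12. Of the subunit genes at these higher levels, 23 of 23, 29 of 30 and 13 of 15 were lower. Among the 1741 analysed genes with a mean above 10, 56.3% were lower and the median was -0.05, while 65 of 68 subunit genes at that level were lower, with a median of -0.22. The share of the 1741 genes that were lower by 0.32 log2 units or more was 18.6%. Genes were also divided by their genomic span in RefSeq, from first to last base, a split chosen after seeing the data. Leaving out the members, 511 genes above 10 had a span of up to 10 kb, of which 69.5% were lower, with a median of -0.13. Of 1161 such genes with a longer span, 48.3% were lower and the median was 0.01. Short genes at this level were thus mostly lower outside the respiratory chain too. Of the subunit genes above 10, 48 had a span of up to 10 kb, with a median of -0.24 and 46 lower. The other 20 had a median of -0.15, and 19 of them were lower. RNA quality was read from the gap between the 3' and 5' control probe sets, which was 0.30 in WT and 0.34 in Snail1 KO for Actb and 0.02 and 0.08 for Gapdh. The part of span, level or RNA quality in the members' differences was not tested.

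Other mitochondrial gene lists were set beside the subunit genes. The proteins of the mitochondrial ribosome, which make the subunits encoded in mitochondrial DNA, had a median of -0.36 over 76 genes, with 73 lower. Of the 76, 10 (13.2%) were at least 1.5-fold lower, against 6.08% of all analysed genes, and 1 (1.32%) was 2-fold lower, against 1.84%. Mrpl1 measured 8.27 in WT and 7.12 in Snail1 KO in its brightest probe set, while another of its probe sets gave 0.16. Mrpl35 differed by -0.83, with another probe set at 0.13, and Mrpl52 by -0.83, with all 3 probe sets lower. All 22 genes of the import list were lower, with a median of -0.27. Timm8a1, a chaperone of the space between the membranes, was at 10.13 and 9.43, Timm17a, of the inner membrane channel, at 11.03 and 10.40, and Timm50, its receptor, at 8.59 and 8.05.

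Assembly factors with other names had a median of -0.20 over 41 genes, with 35 lower and 2 (4.88%) past 1.5-fold. Those were Higd1a, at 10.28 and 9.64, and Cmc1, at 10.23 and 9.63, each with a second probe set of the opposite sign, at 0.39 and 0.08. Cox16 was at 9.26 and 8.73. Carriers and enzymes that feed or serve the chain had a median of -0.16 over 21 genes, with 17 lower. Atpif1, which inhibits ATP synthase when the membrane potential is lost, was at 11.10 and 10.51, with 0.07 in a dim second probe set. Etfb and Etfa, the electron transfer flavoprotein that brings in electrons from fat oxidation, differed by -0.43 and -0.41.

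The citric acid cycle supplies NADH and succinate, and its list here also holds genes of pyruvate entry. The list lay closer to the background, with a median of -0.06 over 22 genes, 15 lower and 7 higher, none of them past 1.5-fold. Its 9 genes with a mean above 10 had a median of -0.15, against -0.05 for all analysed genes and -0.22 for subunit genes at that level. Pdk4, a kinase that restrains pyruvate entry, differed by -0.46, Pdk2 by 0.41 and Dld, a shared dehydrogenase subunit, by 0.40. Cytosolic ribosomal proteins, a list from outside mitochondria, had 41 of 46 lower, with a median of -0.10. Rpl14 was furthest from 0, at -0.68, followed by Rpl37, at -0.50. Of the symbols searched for subunits encoded in mitochondrial DNA, 1 matched a single-symbol probe set: ND5 of complex I, at 12.17 and 12.13. The others were not analysed here.

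Genes that control the expression of respiratory chain genes were not lower as a list, with a median of 0.04 over 25, 13 higher and 12 lower. The largest differences were positive. Tfb2m, a factor for transcription of mitochondrial DNA, measured 8.81 in WT and 9.65 in Snail1 KO, or 1.79-fold higher. Gabpa, the DNA-binding subunit of GABP (also called NRF-2), was 1.63-fold higher, but its second probe set gave -0.06. Gabpb1, its partner, had 1 probe set at 0.43 and another at -0.35. Nrf1, the other main nuclear regulator, was at 6.35 and 6.39, Tfam, which packages mitochondrial DNA, at 8.42 and 8.57, and the coactivator Ppargc1a at 5.52 and 5.30. The 3 probe sets of Nrf1 ranged from -0.03 to 0.46 and the 3 of Ppargc1a from -0.22 to 0.18, so both signs occur. Both Tfam probe sets were higher, by 0.11 and 0.14.

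**Figure D4:**
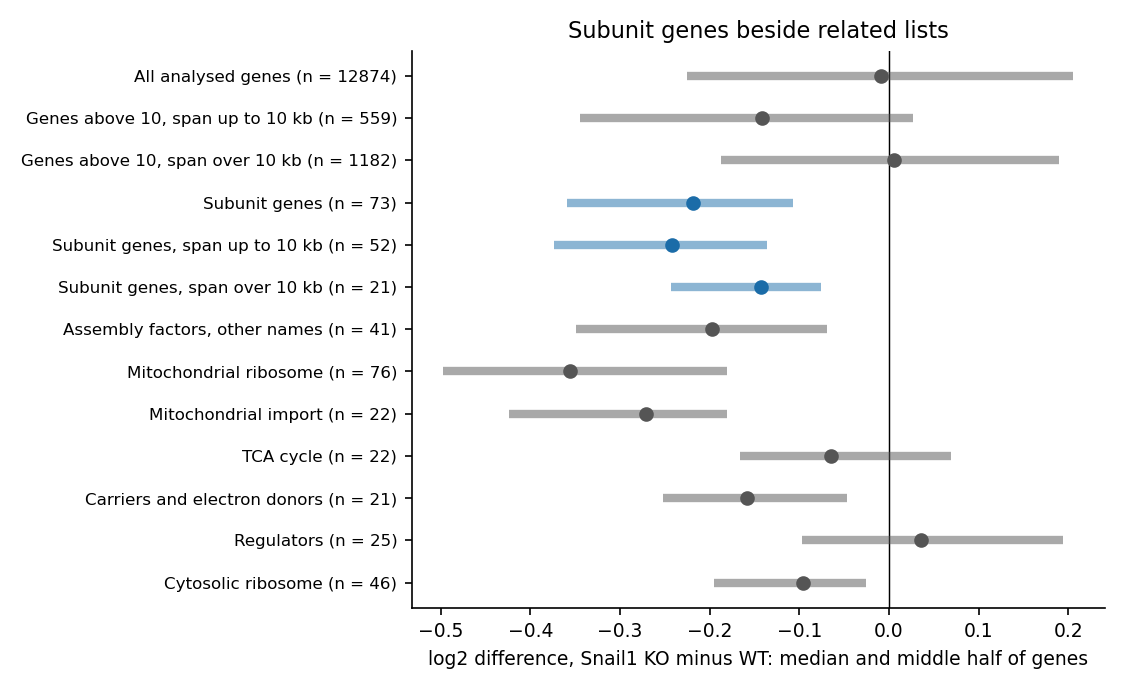
Points are median log2 differences (Snail1 KO minus WT) and bars the interquartile range over the genes of each list, with subunit genes in blue. The mitochondrial ribosome lies lowest, at -0.36, and the regulators and the long genes above 10, members included, lie near 0.

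Promoters of the subunit genes were examined because 68 of the 73 genes had the same sign. RefSeq windows of 300 bases around the transcription start (build GRCm38.p6) were found for 62 of the 73 genes, 67 windows in all. They were searched on both strands for letters of sites known for respiratory chain promoters. GCGCATGC, from the NRF1 site, was in windows of 10 of the 62 genes (16.1%), against 5.76% of 10337 analysed genes with a window, 6.90% of the 1434 with a mean above 10 and 2.71% of all windows. CCGGAAG, bound by ETS factors such as GABP, was in 17 (27.4%), against 18.9% of the analysed genes, 22.3% of those above 10 and 8.86% of all windows. AAGATGGC, from the YY1 site, was in 9 (14.5%), against 5.12%, 6.62% and 2.75%, and AAGGTCA, read by ERR receptors, in 7 (11.3%), against 3.89%, 3.84% and 4.72%. The GCGCATGC letters can overlap themselves on the opposite strand. The median difference was -0.14 for the genes with the NRF1 letters and -0.25 for those without, and -0.28 and -0.22 for the ETS letters. For the YY1 letters the medians were -0.31 and -0.22, and for the ERR letters -0.19 and -0.24. A match is a description of the letters only.

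The windows of 4 genes are shown 5′ to 3′ on the gene's strand, with matched letters in capitals: Cycs, Atp5k, picked after its matches were seen as a window with 3 kinds of match, and the analysed genes with the lowest and the highest difference, Ndufa5 and Cox7c. In Cycs (chr6:50566520-50566819, minus strand), the NRF1 letters start at position 191 of the window, on the reverse strand. In Atp5k (chr5:108434350-108434649, minus strand), the NRF1 letters start at positions 201 and 203 and overlap, the ETS letters follow at 263 on the reverse strand and the ERR letters at 274. The windows of Ndufa5 (chr6:24527477-24527776, minus strand, the downstream of 2 that overlap) and Cox7c (chr13:86046746-86047045, minus strand) hold none of the 4 searched strings.
Cycs: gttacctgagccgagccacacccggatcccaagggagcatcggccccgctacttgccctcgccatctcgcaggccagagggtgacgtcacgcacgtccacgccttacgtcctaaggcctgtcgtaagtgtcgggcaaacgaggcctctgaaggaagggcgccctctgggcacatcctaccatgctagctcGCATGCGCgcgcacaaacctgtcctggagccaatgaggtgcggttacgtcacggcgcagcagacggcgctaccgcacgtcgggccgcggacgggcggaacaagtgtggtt
Atp5k: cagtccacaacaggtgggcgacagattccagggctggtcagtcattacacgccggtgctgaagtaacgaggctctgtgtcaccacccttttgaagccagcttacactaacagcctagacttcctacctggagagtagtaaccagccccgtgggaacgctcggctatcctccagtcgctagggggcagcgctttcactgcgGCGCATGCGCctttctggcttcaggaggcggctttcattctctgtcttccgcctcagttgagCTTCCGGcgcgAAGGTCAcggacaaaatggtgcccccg
Ndufa5: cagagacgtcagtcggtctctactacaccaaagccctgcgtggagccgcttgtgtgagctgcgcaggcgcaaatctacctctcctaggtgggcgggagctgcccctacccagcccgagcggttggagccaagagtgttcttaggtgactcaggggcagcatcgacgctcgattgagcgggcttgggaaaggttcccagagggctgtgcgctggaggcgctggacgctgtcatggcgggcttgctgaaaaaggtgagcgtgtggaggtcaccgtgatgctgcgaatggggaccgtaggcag
Cox7c: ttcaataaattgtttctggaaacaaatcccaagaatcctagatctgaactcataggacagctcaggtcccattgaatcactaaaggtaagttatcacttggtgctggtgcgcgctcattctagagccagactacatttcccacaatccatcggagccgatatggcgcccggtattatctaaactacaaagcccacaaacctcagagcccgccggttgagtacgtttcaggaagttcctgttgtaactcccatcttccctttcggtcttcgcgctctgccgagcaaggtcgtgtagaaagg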

How the data were processed

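Values are log2 expression per probe set on 1 array per group. Per the submitters' processing notes, the authors made the deposited log2 values with affy and RMA (versions not given in the sources used here). RMA includes quantile normalization between arrays, which hides a change of total mRNA. Differences of dim probe sets can be compressed as well, apart from that step. Symbols came from the platform's annotation. All 91 member genes were found by Entrez identifier in a RefSeq table of GRCm38.p6, with no symbol changed. Gene results leave out 64 controls and the probe sets with several symbols (932) or none here (9160). Members, complexes, related lists, marker lists and the naming rule were chosen with earlier results of these data known. The rule names members, Snai1, Cdh5 and the 3 genes furthest from 0 in each related list. Cyc1, ND5, Nrf1, Tfam, Ppargc1a, Myh6, Rgs5 and Sox2 are named beyond that rule, with their values known. So are Acta2, Tagln, Cnn1, Pdgfrb, Des, Cspg4, Stmn2, Nes, Tubb3, Coro1a and Col3a1. The endothelial markers Emcn, Cldn5, Tek, Kdr, Tie1, Esam and Erg are named beyond it too. In the cytosolic ribosome list, S6 kinases and binding proteins were left out, and the genes of mitochondrial DNA were matched by symbol without synonyms, both set after seeing the matched names. Summaries were computed with Python 3.11.15, numpy 2.4.6 and pandas 2.3.3 and tested on simulated data. No replicates exist here, so no test, error or p-value is given, and the number of arrays sets the precision. As a yardstick, the log2 difference of each further probe set above the filter level was compared with that of its gene's brightest probe set. The gap between these differences had an SD of 0.40 over 10436 comparisons. This includes probe error and says nothing of the spread between samples. The alternatives were other filters, the mean of all probe sets, fewer probe set types, centred arrays and other fold sizes. The planned comparison of isoform proteins was not made.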

Additional observations from a re-analysis of the deposited data

Results flagged for a closer look

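Array control probe sets for Cre, outside every gene comparison, gave a signal on the Snail1 KO array far above that of the WT array. Sizes on the log2 scale came to 8.04, 9.52, 9.44 and 10.17 over 4 probe sets. On the WT array these probe sets lay below the filter level, so the sizes are not exact. Cells of the Snail1 KO group were the ones given the Cre adenovirus, but the source of the signal on these control probe sets was not tested.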

How the results depend on the processing

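The median over all subunit genes ranged from -0.22 to -0.20 over all alternatives, and the medians of complexes I to V were negative in each of them. Complex I had the lowest median of the 5, but without probe sets ending in _x_at, _s_at or _a_at complexes I and IV both stood at -0.23. Complex II moved from -0.11 to -0.19 with the mean of all probe sets, past complex III at -0.18, so its place as the smallest median depends on that choice. The number of subunit genes at least 1.5-fold lower was 3 (Cycs, Ndufa5 and Ndufb1), and by construction it was 0 at 2-fold and 22 at 0.32 log2 units. It was 4 with the mean of all probe sets, where Cycs at -0.50 fell short and Uqcr10 at -0.62 and Atp5o at -0.61 came in. It was also 4 without probe sets ending in _x_at, _s_at or _a_at, with Uqcr10 added, and 2 among genes with a mean above 10 and 2 without Cycs. The 1 gene at least 1.5-fold higher, Cox7c, is lost (a count of 0) at 2-fold, without probe sets ending in _x_at, _s_at or _a_at, among genes with a mean above 10 and without Cox7c itself, the last 2 settings chosen after seeing the data. The median of assembly and regulatory genes was 0.031 among genes with a mean above 10, which leaves Cox7a2l alone of the 9. With the mean of all probe sets Atp5c1, Atp5g2, Ndufa7 and Sdha changed sign, 4 of 73 genes. No array could be left out, and no paired analysis was possible because a group holds just 1 array. Without detection calls, how far a probe set lies above background is not known.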
